A study of Mus musculus with 12 samples.

Results

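A set of 10 genes of the brain's blood vessels was followed through an Auts2 knockout series. They are Flt1, Kdr, Tek, Tie1 and Pecam1, which encode receptors and an adhesion molecule of the endothelial surface, and Cldn5, Slco1a4, Abcb1a, Slc2a1 and Mfsd2a, which encode a tight junction protein and transporters of the blood-brain barrier. They were chosen by name, as genes known for these roles, with earlier results of these data known. All 10 were matched by symbol among the 55487 gene identifiers of the count files. All 10 passed the filter on low counts in every comparison, and none had a count of 0 in any of the 12 libraries.

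RNA was sequenced from individual male mice, 3 per group. They came from crosses between Cre lines and mice with a floxed exon 7 of Auts2, a neurodevelopmental gene (the Auts2-ex7fl/fl allele). At postnatal day 0 (P0) the tissue was forebrain. The knockouts were labelled cmv-cre_auts2-ex7koko and carried Cmv-cre, a line active throughout the body, endothelium included. Their controls were wild-type littermates labelled BL6 WTLM. At postnatal day 14 (P14) the tissue was hippocampus. The knockouts were labelled nes-cre_auts2-ex7koko and carried Nes-cre, driven by the nestin regulatory sequence in neural progenitors and their descendants, a lineage that does not include endothelial cells. The P14 controls were labelled auts2-ex7-fl-het. Nes-cre status is not given for them, so they had either both working copies of exon 7 or 1. Whether exon 7 was lost in endothelial cells was not measured in either model.

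Endothelial cells of the brain are joined by tight junctions, of which claudin 5 (Cldn5) is the main sealing protein, and they pass nutrients and drugs through dedicated transporters instead of gaps or vesicles. Vessel growth into the neural tissue is driven by VEGF acting on its receptor Kdr (VEGFR2), with Flt1 (VEGFR1) as a high-affinity trap for the ligand, while the Tek (Tie2) and Tie1 receptors act in vessel stability. The barrier properties are induced by Wnt7a, Wnt7b and norrin from neural cells, which signal to the endothelium through beta-catenin.

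Total gene counts lay between 11247150 and 16796797 per P0 library and between 16830720 and 23340621 per P14 library. No 2 replicates were alike within sampling noise (chi-square over genes divided by its degrees of freedom, 2.93 to 17.5 within groups). The P0 libraries carry numbers from a first series (1407 to 1410) and, for knockout 3 and wild type 3, from a second (1415 and 1416), which were also the deepest at P0. The gene-level count of Auts2 sums all isoforms and does not check the loss of exon 7. Auts2 stood at 165, 182 and 161 counts per 1000000 counts of the scaled library (CPM) in the P0 knockouts against 160, 136 and 155 in wild type, and at 93.0, 77.5 and 75.2 CPM in the P14 knockouts against 97.5, 98.0 and 110 in controls. Neither difference passed the threshold (adjusted p = 0.362 at P0 and 0.111 at P14, edgeR's quasi-likelihood test). A further 25 endothelial genes were detected in every library.

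The 3 genes whose P0 knockout and wild-type libraries did not overlap were Slc2a1, Kdr and Slco1a4, and the 250 bases before their RefSeq start sites (GRCm38.p6) are shown because they are Slc2a1, the member called at P0, and the other two whose groups stood apart without passing the threshold. Capitals mark matches to 5 short motifs of factor classes known at endothelial and barrier genes, searched on both strands: AGGAAG (ETS), CTTTGA (TCF/LEF), ACAAT (SOX), ACGTG (hypoxia response core) and, for GATA factors, AGATAA. Slc2a1 is shown on the plus strand at chr4:119108495-119108744, Kdr on the minus strand at chr5:75978456-75978705, and Slco1a4 on the minus strand at chr6:141856221-141856470.
Slc2a1: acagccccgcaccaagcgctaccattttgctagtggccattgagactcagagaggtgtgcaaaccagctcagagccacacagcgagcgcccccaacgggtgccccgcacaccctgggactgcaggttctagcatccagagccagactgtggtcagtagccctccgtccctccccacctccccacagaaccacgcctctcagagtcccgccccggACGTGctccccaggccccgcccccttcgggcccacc
Kdr: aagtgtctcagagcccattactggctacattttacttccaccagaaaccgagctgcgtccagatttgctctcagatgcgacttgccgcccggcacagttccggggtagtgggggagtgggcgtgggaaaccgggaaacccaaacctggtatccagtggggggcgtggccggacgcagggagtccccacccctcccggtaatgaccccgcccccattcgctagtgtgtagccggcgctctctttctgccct
Slco1a4: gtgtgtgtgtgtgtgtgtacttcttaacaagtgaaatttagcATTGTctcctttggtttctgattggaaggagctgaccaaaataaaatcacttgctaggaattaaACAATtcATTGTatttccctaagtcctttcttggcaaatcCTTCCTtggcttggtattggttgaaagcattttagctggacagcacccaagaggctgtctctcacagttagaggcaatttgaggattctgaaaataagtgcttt
The Slc2a1 window held 1 match, to the hypoxia response core, and was 66.4% G and C with 13 CpG sites. The Kdr window held none of the motifs and was 61.6% G and C with 16 CpG sites. The Slco1a4 window held 3 SOX matches and 1 ETS match, was 39.2% G and C and had no CpG site. Across the 9 members with a promoter entry (all but Pecam1), the ETS motif was found in 4 (Abcb1a, Flt1, Slco1a4 and Tie1), against 29.5% of all 32851 promoters of the same length. TCF/LEF matches were found in Abcb1a and Mfsd2a (13.8% of all promoters), SOX matches in Slco1a4 and Tek (27.7%), hypoxia core matches in Mfsd2a and Slc2a1 (16.6%), and GATA matches in no member (9.99%). The RefSeq start used for Abcb1a lies 93 kb upstream of its GENCODE gene start, so its window and matches belong to a distant start (the other 8 starts lay within 212 bases). A match is a string of letters, not a measured binding site.

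The first question is whether these genes differed between P0 knockout and wild-type forebrain. Slc2a1 rose and was the only member to pass the threshold, an adjusted p under 0.05 in edgeR's quasi-likelihood test over all genes. This share, 1 of 10 members, stands beside 147 of 16176 genes called over the whole table (0.909%), of which 31 (0.192%) were higher and 116 (0.717%) lower in the knockouts. At an unadjusted p under 0.05 there were 3 members, Slc2a1, Kdr and Slco1a4, beside 16.1% of all genes. In all, 4 members had a log2 fold change above 0 and 6 below it, with a median of -0.11, while the median over all genes tested was at 0.00. Groups did not overlap for 3 members, Slc2a1 above wild type (as 10.7% of all genes) and Kdr and Slco1a4 below it (as 11.1%). In either direction, this was so for 21.8% of genes.

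Slc2a1 (ENSMUSG00000028645, chromosome 4, 119108711 to 119137983, plus strand, GRCm38) encodes GLUT1, the carrier that brings blood glucose across the barrier. It stood at 45.2, 36.3 and 46.6 CPM in the P0 knockouts and at 28.4, 28.9 and 28.1 CPM in wild type. Every knockout library lay above every wild-type library, and the wild-type libraries were close to each other (28.5 ± 0.43 CPM, SD, n = 3, against 42.7 ± 5.6 in the knockouts). The log2 fold change was 0.58 (SE 0.10), or 1.5-fold, with an adjusted p of 0.0267. It was 0.51 within the 4 libraries of the first series alone (adjusted p = 0.00168) and 0.58 with the series as a term (adjusted p = 0.0122). These fits called 2107 and 465 genes over the whole table. The call was lost when knockout 1, wild type 1 or wild type 2 was left out (0.55, 0.58 and 0.59, with adjusted p of 0.111, 0.177 and 0.146). Those 3 fits called 1, 2 and 1 genes over the whole table.

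GLUT1 is also made by choroid plexus epithelium, astrocytes and the red blood cells of newborn mice, and their markers were read in the same libraries. Over all genes at P0, 16.1% had an unadjusted p under 0.05 in edgeR's test. At an adjusted p under 0.05 edgeR called 147 genes at P0 and DESeq2 374. The choroid plexus list had 7 of 9 tested members on the higher side at P0 (median log2 fold change 0.17, 0 called by edgeR or DESeq2, 4 with an unadjusted p under 0.05, 2 in each direction), and its summed level was 912 to 1007 CPM in the knockouts against 679 to 860 CPM in wild type, without overlap. The blood cell list had 7 of 7 tested members on the higher side (median 0.32, 0 called by edgeR or DESeq2 and 0 with an unadjusted p under 0.05), with sums of 104 to 177 CPM against 87.0 to 134. The astrocyte list ran the other way, with 9 of 10 members on the lower side, 6 with an unadjusted p under 0.05, all lower, and 1 called by edgeR against 4 by DESeq2 (Aqp4, Gja1, Slc1a2 and Slc1a3). Aqp4, the water channel of the astrocyte endfeet around vessels, fell in edgeR's test (log2 fold change -0.59, adjusted p = 0.0416). Its call was lost without knockout 1, knockout 2, wild type 1 or wild type 2 (-0.57, -0.56, -0.44 and -0.62, adjusted p = 0.150, 0.153, 0.233 and 0.167). Counts of 1 strand, a non-robust fit and 1 fit on all 12 libraries lost it too. Aqp4 passed in 9 of 16 other settings. The sums of the astrocyte list were 643 to 651 CPM in the knockouts and 699 to 894 CPM in wild type. What part any of these had in the Slc2a1 difference was not tested. In bulk tissue, more or fewer cells of a type and more or less RNA per cell cannot be told apart. The antisense gene Gm12868, which shares 105 exonic bases with Slc2a1, had 0 to 10 counts in any library, and Slc2a1 had 338 to 1394.

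**Figure D1:**
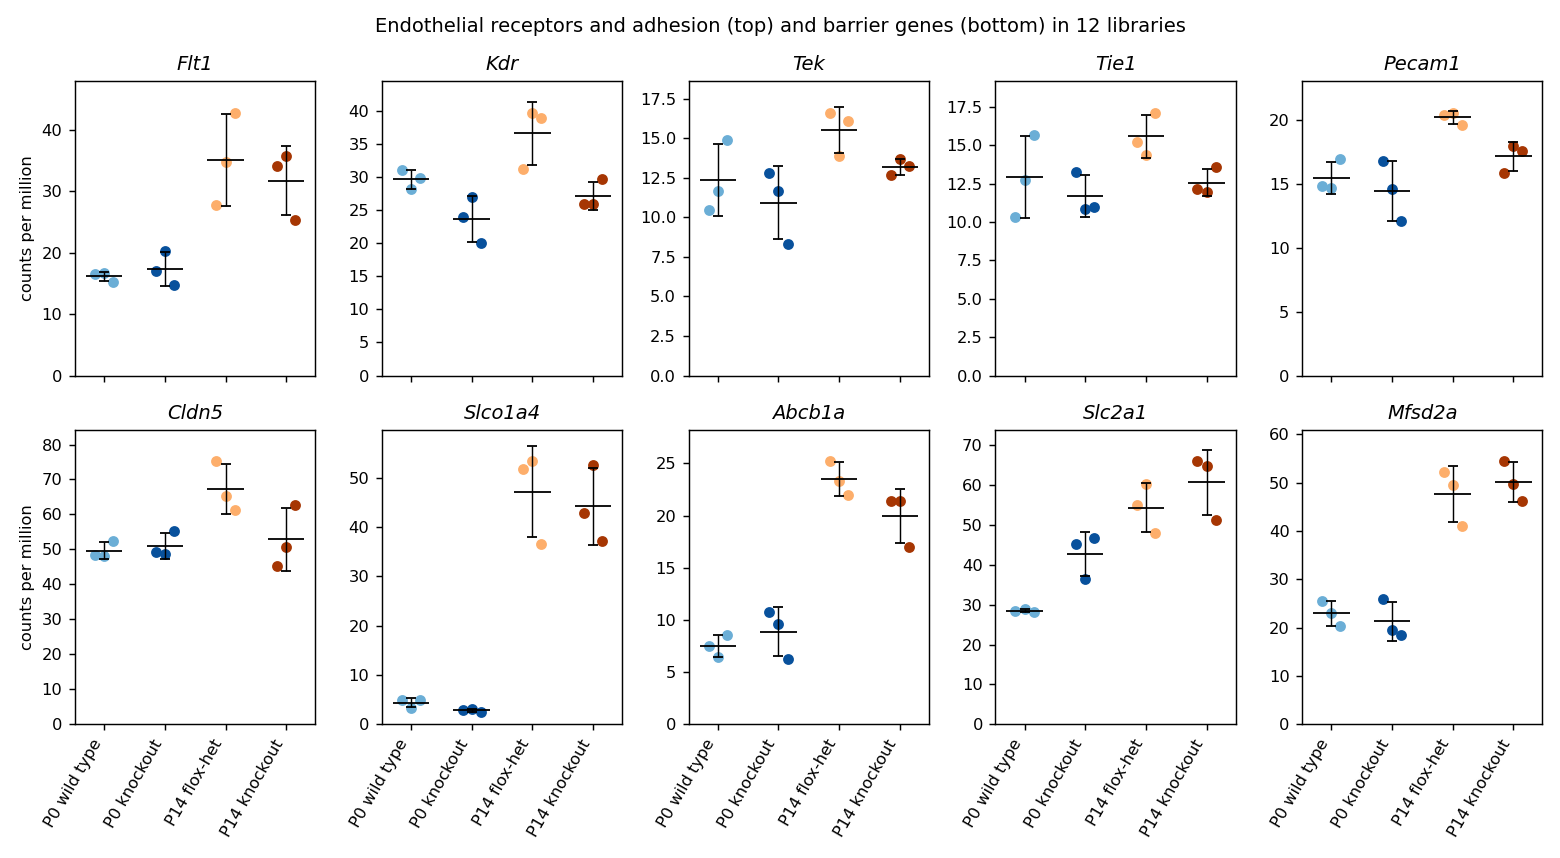
CPM (vertical axes, linear, from 0) of the 5 receptor and adhesion genes (top) and the 5 barrier genes (bottom) in the 12 libraries. Points are libraries, long bars group means and whiskers SD (n = 3); the Slc2a1 points of the P0 knockouts (36.3 to 46.6) sit above those of wild type (28.1 to 28.9), and Slco1a4 lies at 2.54 to 5.04 at P0 and 36.5 to 53.3 at P14.

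The receptors did not pass the threshold at P0. Kdr (ENSMUSG00000062960, chromosome 5, 75932827 to 75978458, minus strand) stood at 23.9, 27.0 and 20.1 CPM in the knockouts and 31.0, 28.1 and 29.8 CPM in wild type. The groups did not overlap, and the log2 fold change was -0.33 (SE 0.12, adjusted p = 0.176). Flt1 was at 17.0, 20.3 and 14.8 CPM against 16.5, 16.7 and 15.2, with overlap and a log2 fold change of 0.10 (SE 0.13, adjusted p = 0.761). Tek, Tie1 and the adhesion gene Pecam1 had values of 8.35 to 16.8 CPM in the knockouts and 10.3 to 16.9 CPM in wild type, all overlapping, and log2 fold changes of -0.20, -0.16 and -0.11. In these 3 genes knockout 3 was the lowest or next to lowest of the knockouts and wild type 3 the highest of the wild types. Their differences were 0.15, 0.07 and 0.09, on the other side of 0, within the first library series.

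Among the other barrier genes at P0, Slco1a4 (ENSMUSG00000030237, chromosome 6, 141805440 to 141856199, minus strand), which encodes an organic anion transporter (OATP1A4), was low in all libraries. It stood at 2.86, 3.07 and 2.54 CPM in the knockouts and at 5.04, 3.32 and 4.93 CPM in wild type, from 36 to 42 counts and 41 to 89 counts. The groups did not overlap, but wild type 2 lay close to the knockouts, and the log2 fold change of -0.67 (SE 0.24) had an adjusted p of 0.188. Its neighbour Slco1a5, a close copy, had 1 to 3 counts in the knockouts and 11 to 12 in wild type and was too low to be tested at P0. How reads that match both copies were counted is not given in the sources used here, so Slco1a4 values are uncertain to that extent. Cldn5 was at 49.2, 48.6 and 55.2 CPM in the knockouts and 48.5, 48.1 and 52.4 CPM in wild type. Its log2 fold change was the smallest of the 10, at 0.03 (SE 0.09, adjusted p = 0.895). Abcb1a, the P-glycoprotein drug efflux pump, was at 10.7, 9.62 and 6.23 CPM against 7.48, 6.48 and 8.53, with a log2 fold change of 0.22 (SE 0.20, adjusted p = 0.646). Within the 4 libraries of the first series alone Abcb1a was called, at 0.55 (adjusted p = 0.0490), in a fit that called 2107 genes over the whole table. Mfsd2a, the carrier of lysophospholipids that also holds back vesicle transport, was at 25.9, 19.6 and 18.5 CPM against 25.5, 23.1 and 20.4 (log2 fold change -0.11, SE 0.14, adjusted p = 0.734).

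The second question is whether the same genes differed between P14 knockout and flox-het hippocampus. No member passed the threshold, in a table where 342 of 17208 genes did (1.99%, with 1.21% higher and 0.773% lower in the knockouts). At an unadjusted p under 0.05, edgeR gave 4 of 10 members (Kdr, Cldn5, Tie1 and Pecam1, all lower) against 15.2% of all genes. DESeq2 called 1 member (Kdr), in a fit that called 534 genes over the whole table. In all, 8 members had a log2 fold change below 0 and 2 above, with a median of -0.22, against a median of -0.01 and 51.5% below 0 over all genes. In Kdr, Tek, Tie1, Pecam1 and Abcb1a every knockout library lay below every control, 5 of 10 members beside 10.6% of all genes, and no member had the reverse.

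Kdr had the largest P14 difference of the 10. It stood at 25.9, 25.8 and 29.6 CPM in the knockouts and 31.1, 39.7 and 39.0 CPM in the controls, without overlap. The log2 fold change was -0.43 (SE 0.11), or 1.34-fold lower, and its adjusted p of 0.0587 lay just above the threshold. Kdr passed in 5 of 14 other settings, among them DESeq2 (adjusted p = 0.0266) and the fits without control 1 (-0.53, adjusted p = 0.0191) or control 3 (-0.37, adjusted p = 0.0347), and its P14 difference lay between -0.53 and -0.36 over all 14. Kdr was thus below its controls without overlap in both contexts, which was true of 243 of 15643 genes tested in both (1.55%), and it passed the threshold in neither.

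Tie1 stood at 12.2, 11.9 and 13.6 CPM in the P14 knockouts and at 15.3, 14.4 and 17.1 CPM in the controls (log2 fold change -0.30, SE 0.12, adjusted p = 0.248). Pecam1, which encodes the endothelial junction protein CD31, was at 15.9, 18.0 and 17.6 CPM against 20.4, 20.6 and 19.6 (-0.23, SE 0.10, adjusted p = 0.307). Tek was at 12.7, 13.7 and 13.2 CPM against 16.6, 13.9 and 16.1 (-0.22, SE 0.12, adjusted p = 0.384). In Tek only a narrow gap separated knockout 2 from control 2. Flt1 was at 34.2, 35.7 and 25.3 CPM against 27.7, 34.8 and 42.8, so the groups overlapped widely (-0.13, SE 0.18, adjusted p = 0.801). The summed level of the 5 receptor and adhesion genes was 99.4 to 105 CPM in the knockouts and 111 to 135 CPM in the controls.

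The barrier genes were less uniform at P14. Cldn5 stood at 45.1, 50.7 and 62.8 CPM in the knockouts and 75.2, 65.3 and 61.3 CPM in the controls. Knockout 3 lay above control 3, the only overlap, and the log2 fold change was -0.34 (SE 0.11, adjusted p = 0.166). Without knockout 3 it was -0.48 and passed the threshold (adjusted p = 0.0477). Abcb1a was at 21.4, 21.4 and 17.0 CPM against 25.2, 23.3 and 21.9 (-0.22, SE 0.11, adjusted p = 0.364). Slco1a4 was at 42.9, 52.6 and 37.1 CPM against 51.8, 53.3 and 36.5 (-0.08, SE 0.17, adjusted p = 0.882), and Mfsd2a at 54.4, 49.7 and 46.3 CPM against 52.2, 49.5 and 41.1 (0.09, SE 0.10, adjusted p = 0.726). Both overlapped throughout. Slc2a1, called at P0, was at 65.9, 64.8 and 51.2 CPM in the P14 knockouts and 54.9, 60.2 and 47.9 CPM in the controls, with overlap and a log2 fold change of 0.17 (SE 0.11, adjusted p = 0.487).

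**Figure D2:**
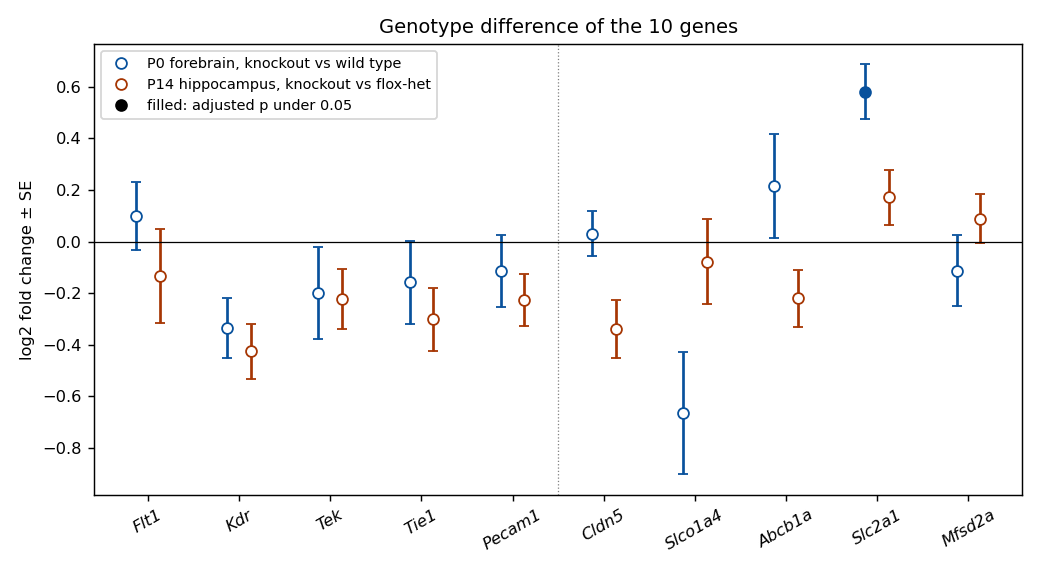
Log2 fold change of knockout over control (vertical axis, whiskers SE from edgeR) for the 10 genes in P0 forebrain and P14 hippocampus, 3 libraries per group. The filled point, Slc2a1 at P0 (0.58), is the only one past the threshold; Kdr lies at -0.33 and -0.43.

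Whether the genotype difference itself differed between the 2 contexts was tested with an interaction term fitted to the 12 libraries. In edgeR and in DESeq2 it passed for none of the 10 members, in a table where 326 of 18189 genes passed (1.79%), and at an unadjusted p under 0.05 it gave 2 members, Slc2a1 and Cldn5, against 15.3% of all genes. The P14 difference minus the P0 difference was -0.43 for Slc2a1 (SE 0.16, adjusted p = 0.192) and -0.39 for Cldn5 (SE 0.15, adjusted p = 0.216). It was 0.58 for Slco1a4 (SE 0.29, adjusted p = 0.348) and -0.45 for Abcb1a (SE 0.23, adjusted p = 0.365). The other 6 lay between -0.25 (Flt1) and 0.18 (Mfsd2a). Slc2a1 was thus called at P0, and its difference was not shown to differ from that at P14.

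To see whether a member moved apart from endothelial transcripts in general, its log2 CPM was set against the mean log2 CPM of 25 other endothelial genes, among them Cdh5 (VE-cadherin), Erg, Sox17 and Emcn, in the same library. At P0 that mean was 2.97 to 3.14 in the knockouts and 3.11 to 3.20 in wild type, and at P14 3.57 to 3.63 in the knockouts and 3.76 to 3.80 in the controls, where it did not overlap. Relative to it, Slc2a1 at P0 was higher in the knockouts by 0.64 (2.34 ± 0.25 against 1.70 ± 0.055), without overlap. Kdr was lower by 0.27 (1.49 ± 0.14 against 1.75 ± 0.044) and Slco1a4 by 0.54 (-1.52 ± 0.066 against -0.98 ± 0.31), both without overlap (SD, n = 3). Each had an exact two-sided permutation p of 0.1, the smallest that 3 against 3 libraries allow, and an adjusted p of 0.5 over the 20 tests. By the same measure 22.2% of all genes did not overlap at P0. At P14 no member was free of overlap, while 33.5% of all genes were. This share is no fair background for the members, since the subtracted mean was itself lower in all P14 knockouts. Subtracting it raised the relative level of every gene there, whatever its own change. The P14 differences were -0.24 for Kdr, 0.34 for Slc2a1 and 0.26 for Mfsd2a (exact permutation p = 0.2 each, adjusted p = 0.5), so Kdr was less far below its controls than in CPM.

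**Figure D3:**
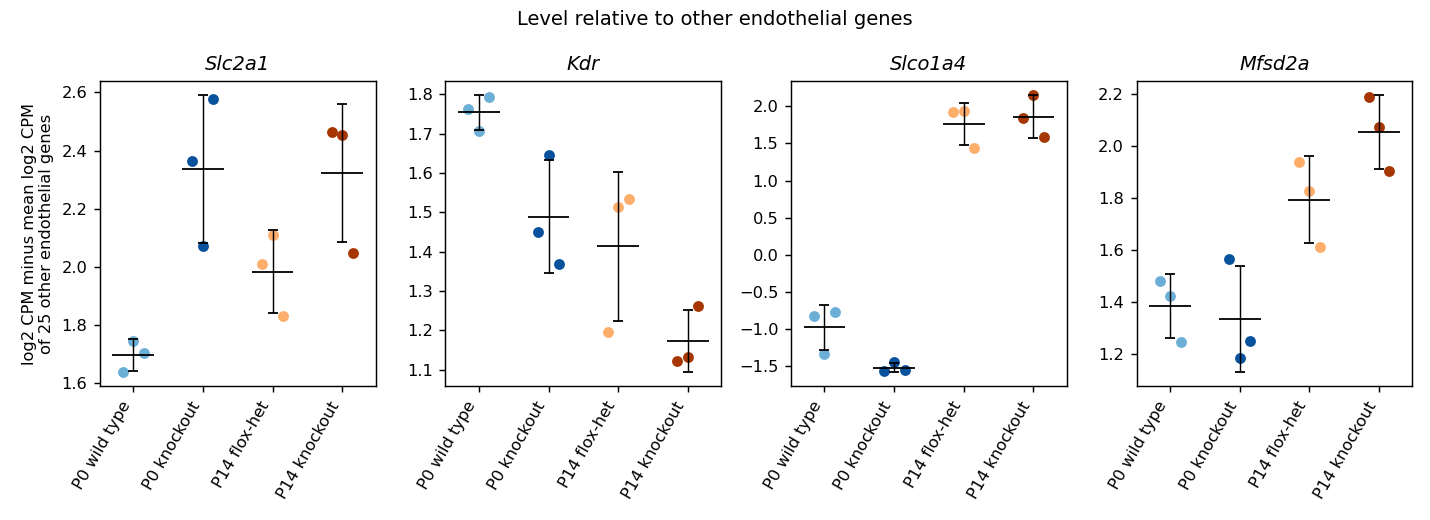
Log2 CPM of Slc2a1, Kdr, Slco1a4 and Mfsd2a minus the mean log2 CPM of 25 other endothelial genes (vertical axes, not from 0) in each library, with group means and SD (n = 3). At P0 the 2 groups are apart for Slc2a1 (2.34 against 1.70 on average), Kdr (1.49 against 1.75) and Slco1a4 (-1.52 against -0.98), and at P14 they overlap for all 4 genes.

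Other genes linked to the vessel wall were read through fixed lists. In bulk tissue the cells that made their RNA cannot be told apart, here or in the P14 to P0 comparison below. Of the 25 other endothelial genes, 0 were called at either age by edgeR or DESeq2. At an unadjusted p under 0.05 edgeR gave 3 at P0 (beside 16.1% of all genes) and 5, all lower, at P14 (beside 15.2%). In all, 15 had a log2 fold change below 0 at P0 (median -0.08) and 21 at P14 (median -0.18), where 4 of the 25 lay below the controls without overlap, beside 10.6% of all genes. Among 27 other barrier genes 0 were called at P0 by either tool, and 5 had an unadjusted p under 0.05 (beside 16.1% of all genes). At P14 10 had an unadjusted p under 0.05 in edgeR's test, 8 lower and 2 higher (beside 15.2% of all genes). DESeq2 called 3 at P14, among 534 genes over the whole table. In edgeR's test 2 fell, beside 0.773% of all genes called lower. These were Itm2a, a membrane protein enriched in brain endothelium, at 60.2 ± 8.7 CPM in the knockouts against 81.1 ± 3.0 in the controls (log2 fold change -0.42, adjusted p = 0.0343), and Car4, a carbonic anhydrase of the capillary surface, at 31.2 ± 2.2 against 41.0 ± 3.4 CPM (-0.38, adjusted p = 0.0452). Both calls were near the threshold, and Itm2a passed in 9 and Car4 in 5 of 14 other settings. Itm2a was lost without knockout 1 or 2 or control 1 or 2 (-0.41, -0.32, -0.40 and -0.44, adjusted p = 0.181, 0.157, 0.119 and 0.134), and Car4 on leaving out any library but control 3 (-0.44 to -0.33). Over the whole list 8 genes lay above 0 and 19 below it at P14, with a median of -0.11.

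The signalling lists held 1 call in edgeR's test. Over all genes, 16.1% had an unadjusted p under 0.05 at P0 and 15.2% at P14, for comparison with the counts below. DESeq2 called 374 genes at P0 and 534 at P14. None of 11 tested VEGF and angiopoietin genes passed at P0 or P14 in edgeR or DESeq2 (3 and 2 at an unadjusted p under 0.05, all lower), and Vegfa, the ligand of Kdr and Flt1, had log2 fold changes of 0.19 and 0.01. None of the Notch, arterial and venous genes passed in edgeR (12 tested at P0 and 14 at P14, 2 and 3 at an unadjusted p under 0.05), and none of 8 genes of fenestrated or leaky vessels (3 and 1). DESeq2 called 1 gene of each list at P14, Ephb4 and Cav1. That list includes Plvap, the diaphragm protein that the mature barrier lacks, at log2 fold changes of 0.20 and -0.46. Of 16 Wnt/beta-catenin genes, 4 had an unadjusted p under 0.05 at P0 (2 lower) and 4 at P14 (3 lower). Among them Lef1, a transcription factor of the pathway, fell at P14, from 5.30 ± 0.76 to 2.35 ± 0.19 CPM (-1.16, adjusted p = 0.00823). The counts of 1 strand alone gave -0.65 (adjusted p = 0.259), and without knockout 1 or control 2 Lef1 stood at -1.09 and -1.08 (adjusted p = 0.0613 and 0.0645). Lef1 is not restricted to endothelium. Prox1, a marker of dentate granule neurons, was also lower in all P14 knockouts (116, 97.7 and 124 CPM against 172, 200 and 202), and its part in the Lef1 value was not tested. The Wnt ligands Wnt7a and Wnt7b were at 0.36 and 0.37 at P0 and at -0.13 and 0.09 at P14, none called by edgeR, while DESeq2 called Wnt7b at P0. Hypoxia response targets, which share regulation with Slc2a1 in many cells, had 7 of 9 tested members below 0 at P0 (median -0.19), with 0 called by edgeR or DESeq2 and 2 at an unadjusted p under 0.05. Their summed level at P0 was 484 to 510 CPM in the knockouts and 521 to 563 CPM in wild type. Leaky vessel genes were also lower without overlap (91.0 to 103 against 110 to 117 CPM). Notch, arterial and venous genes were higher without overlap (353 to 370 against 316 to 339 CPM). The VEGF and Wnt sums overlapped.

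Pericyte and smooth muscle markers had 8 of 12 tested members below 0 at P0 (median -0.08, 0 called by edgeR or DESeq2) and 10 of 12 at P14 (median -0.25). At P0 2 had an unadjusted p under 0.05 in edgeR's test (beside 16.1% of all genes). At P14 5 did, 4 lower and 1 higher (beside 15.2%). There edgeR called 1 gene, Vtn (beside 0.773% of all genes called lower), and DESeq2 called Vtn and Acta2 (among 534 genes over the whole table). Vtn, the extracellular protein vitronectin made by pericytes, fell at P14 from 57.8 ± 6.9 to 36.7 ± 5.3 CPM (log2 fold change -0.65, adjusted p = 0.00892) and passed in 13 of 14 other settings. The summed level of the list was 168 to 207 CPM in the P0 knockouts and 217 to 222 CPM in wild type, without overlap. At P14 it was 302 to 394 CPM in the knockouts and 392 to 420 CPM in the controls. Markers of other cells were also read at P14. Fibroblast and meningeal genes had 9 of 11 below 0 (104 to 177 CPM in all against 149 to 195), astrocyte genes 8 of 10 (6348 to 6614 CPM against 6684 to 6789), microglia genes 5 of 10 and pan-neuronal genes 5 of 10. In these 4 lists edgeR called Gap43, a pan-neuronal gene that was higher in the P14 knockouts. DESeq2 called Gap43 and the fibroblast gene Lum. Choroid plexus genes summed to 157, 987 and 2595 CPM in the 3 controls and to 1532, 2059 and 1390 CPM in the knockouts, and blood cell genes to 137 to 197 CPM against 103 to 152. The part of these in the P14 values was not tested. At P0, fibroblast and meningeal genes had 10 of 11 members below 0, microglia genes 8 of 10 with P2ry12 called (-0.93, adjusted p = 0.0368), and pan-neuronal genes 9 of 10 with Nefl (-0.47, adjusted p = 0.0197) and Nefm (-0.42, adjusted p = 0.0416) called. Each of these 3 calls was lost without knockout 1, knockout 2, wild type 1 or wild type 2, and that of Nefm also without wild type 3. In those fits P2ry12 lay at -0.996 to -0.879, Nefl at -0.49 to -0.43 and Nefm at -0.48 to -0.33. P2ry12 was also lost with counts of 1 strand and with a non-robust fit, and Nefm with a non-robust fit. P2ry12 passed in 10, Nefl in 12 and Nefm in 10 of 16 other settings.

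**Figure D4:**
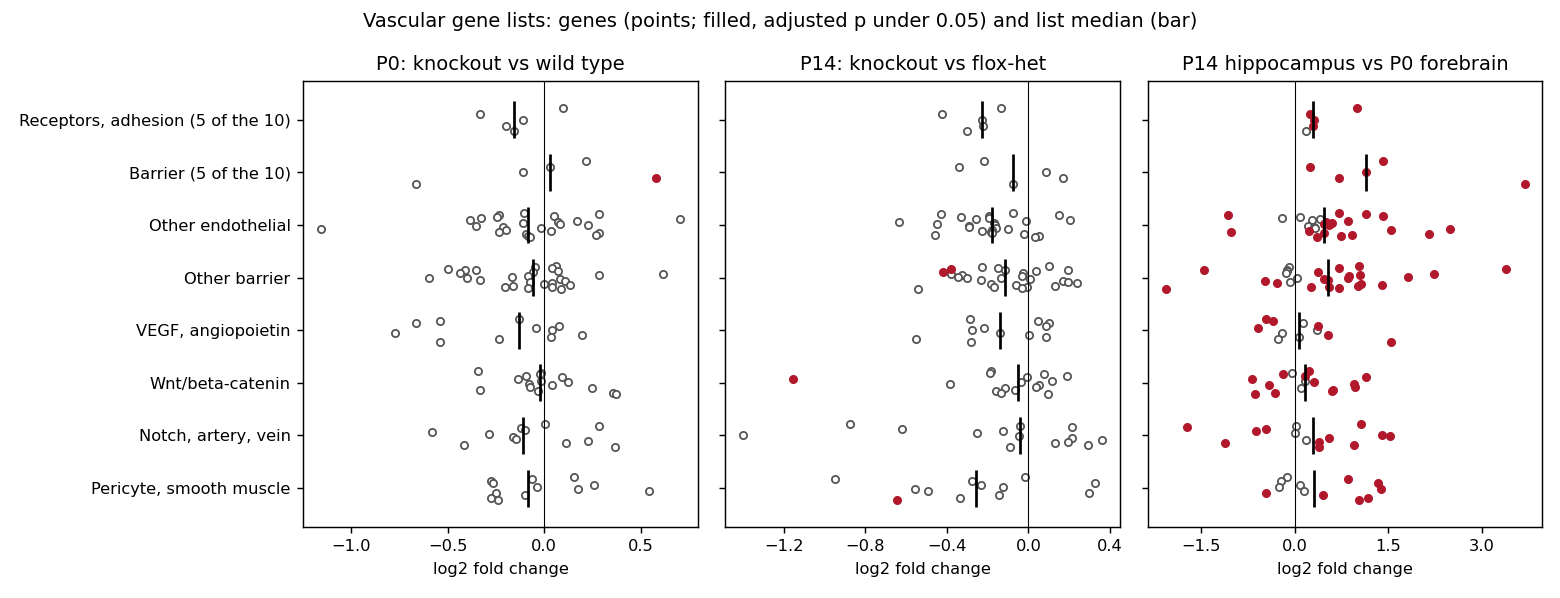
Log2 fold changes (horizontal axes, each panel with its own range) of the tested genes of 8 vascular lists in the 3 comparisons. Points are genes, filled where the adjusted p was under 0.05, and vertical bars are list medians; at P14 the medians of all 8 lists lie below 0, and in P14 hippocampus over P0 forebrain they all lie above 0.

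The third comparison set both P14 groups against both P0 groups. Tissue, age, Cre line, control genotype and library numbers change together in it and cannot be told apart, and 73.8% of the 18189 genes passed (36.6% higher and 37.3% lower at P14). All 10 members were higher in P14 hippocampus, and 9 passed. The spread among members was wide. Slco1a4 was 12.9-fold higher (log2 fold change 3.69, SE 0.13, adjusted p = 2.4e-14), with 36.5 to 53.3 CPM in the 6 P14 libraries and 2.54 to 5.04 in the 6 P0 libraries. Abcb1a was 2.66-fold higher (1.41, SE 0.11), Mfsd2a 2.22-fold (1.15, SE 0.09), Flt1 2.01-fold (1.00, SE 0.11) and Slc2a1 1.65-fold (0.72, SE 0.08). In these 5 genes every P14 library lay above every P0 library, as in 26.3% of all genes. Pecam1, Tek, Kdr and Cldn5 were higher by 0.32, 0.30, 0.25 and 0.24 with overlapping libraries. Tie1 was at 0.18 and did not pass (adjusted p = 0.115). Upper-quartile scaling, which moved the median of all genes to -0.10, kept 6 of the 9 calls and lost Kdr (0.17), Tek (0.22) and Cldn5 (0.16). Counts of 1 strand lost Cldn5 (0.19). Tek was lost without P0 knockout 3 (0.22), and Tie1 passed without P0 wild type 3 (0.28).

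The median of these log2 fold changes was 1.15 for the 5 barrier genes and 0.30 for the 5 receptor and adhesion genes. The sets overlapped, since Cldn5 lay below Flt1, Pecam1, Tek and Kdr, and Flt1 above Slc2a1, and the difference between the sets was not tested. Per library, the mean log2 CPM of the barrier genes minus that of the receptor genes was 0.13, 0.01 and 0.25 in the P0 knockouts and 0.14, -0.10 and -0.10 in wild type. At P14 it was 1.21, 1.21 and 1.06 in the knockouts and 1.19, 1.08 and 0.68 in the controls. All 6 P14 libraries lay above all 6 P0 libraries, and within each context the genotypes overlapped. Slco1a4 carried much of this, as the step from P0 to P14 was 1.02 with it and 0.47 without it. Without Slco1a4 the 6 P14 libraries, at 0.71 to 1.22, overlapped the 6 P0 libraries, at 0.34 to 0.87. Of the 25 other endothelial genes 16 rose and 2 fell in the same comparison (median 0.48), from Ly6a at 2.49 and S1pr1 at 2.16 to Arhgef15 at -1.06. Of the 27 other barrier genes 17 rose and 4 fell (median 0.54), with the largest rise in Car4 at 3.39. The other lists were mixed. The largest rise and fall were Apln (2.12) and Esm1 (-1.09) among leaky vessel genes, Vegfd (1.54) and Nrp2 (-0.58) among VEGF genes, Fzd4 (1.14), the norrin receptor, and Lef1 (-0.68) among Wnt genes, Hey1 (1.53) and Efnb2 (-1.73) among Notch and arterial genes, and Myh11 (1.39) and Notch3 (-0.46) among pericyte and smooth muscle genes.

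To compare genes with each other, CPM were divided by the length of all exons in kilobases. On this scale Cldn5 was the highest member in all 4 groups, at 35.1 ± 1.7 CPM per kb in P0 wild type, 36.0 ± 2.6 in P0 knockouts, 47.5 ± 5.0 in P14 controls and 37.3 ± 6.4 in P14 knockouts. No library of another member reached a Cldn5 library of the same group. Mfsd2a and Slc2a1 followed, at 10.2 ± 1.1 and 8.12 ± 0.12 in P0 wild type and 21.2 ± 2.6 and 15.5 ± 1.8 in P14 controls. In the P0 knockouts their order was turned, with Slc2a1 at 12.2 ± 1.6 and Mfsd2a at 9.47 ± 1.8, which overlapped. Slco1a4 was the lowest of the 10 at P0 (0.691 ± 0.15 in wild type and 0.440 ± 0.041 in knockouts) and ranked 4 at P14 (7.36 ± 1.4 in controls and 6.90 ± 1.2 in knockouts), apart from its neighbours in the order. Kdr, Tie1, Tek and Pecam1 lay at 2.49 to 3.28 CPM per kb in P0 wild type, each overlapping the next in order. Abcb1a and Flt1 overlapped each other below them at P0 (1.37 ± 0.19 and 1.19 ± 0.058 in wild type). At P14 Abcb1a stood at 4.29 ± 0.30 in the controls, next to Kdr at 4.05 ± 0.53, and Flt1 was the lowest member at 2.60 ± 0.56. From Abcb1a down, each P14 member overlapped the next.

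**Figure D5:**
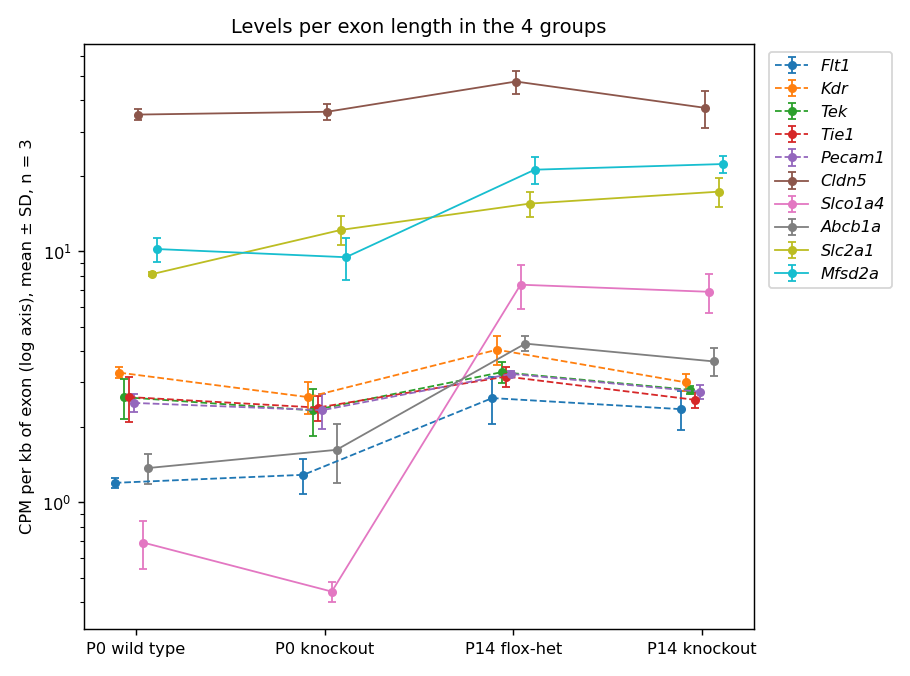
Mean CPM per kilobase of exon (vertical axis, logarithmic) of the 10 genes in the 4 groups, with SD (n = 3); dashed lines are receptor and adhesion genes and solid lines barrier genes. Slco1a4 goes from the lowest level at P0 (0.691 and 0.440) to rank 4 at P14 (7.36 and 6.90), and Cldn5 is the highest throughout (35.1 to 47.5).

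Close copies of the members were read for comparison. Abcb1b, the second P-glycoprotein gene of the mouse, had 11 to 25 counts at P0 and 60 to 89 at P14, against 80 to 154 and 267 to 461 for Abcb1a. Slco1a1 and Slco1a6 had at most 2 counts in any library, and Slco1a5 4 to 16 at P14. Slc2a3, the neuronal glucose carrier GLUT3, stood at 66.9 ± 5.4 CPM in P0 knockouts and 77.7 ± 4.8 in wild type, the opposite side from Slc2a1 (log2 fold change -0.22, not called). Mfsd2b was at 1.55 to 2.06 CPM on average in every group. On chromosome 5, with Auts2, lie 3 members, Flt1 at 15 Mb, Kdr at 55.5 Mb and Abcb1a at 122.7 Mb from it. Slc2a1, Mfsd2a, Tek and Tie1 lie on chromosome 4.

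The genes closest to the members in pattern were sought over all 12 libraries among 14197 other genes, by the root mean square difference of centred log2 CPM profiles. Nearest to the mean profile of the 5 receptor and adhesion genes were Dgke (0.084), Arfgef1 (0.088) and Rnf32 (0.089), and nearest to the mean profile of the 5 barrier genes were Ghitm (0.080), Dlat (0.088) and Smim13 (0.091). None of the 6 is in a vascular list. The 12 points share the step from P0 to P14, in which 73.8% of genes passed, so the nearness is a description.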

How the data were processed

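The labels place 12 libraries in 4 groups of 3, with replicates numbered in accession order. Trizol purification, DNase treatment, TruSeq libraries and paired reads of 150 bases are given by the labels' protocols. Each deposited file holds the raw counts of 1 library over Ensembl genes. Per the submitters' processing notes STAR 2.7.5a and edgeR 3.12 were used, with mm10/GRCm38, and the file names give annotation release 102. The treatment of reads with several matches is not given in the sources used here. The 2 strand columns each held about 50% of their sum (49.9% in column 1 of every library at the least), so the unstranded count was used, and reads of overlapping genes on opposite strands cannot be told apart. Symbols and coordinates came from GENCODE M21 on GRCm38 (55227 of 55487 identifiers matched). Promoters and start sites came from RefSeq on GRCm38.p6.

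The genotype tests used the 6 libraries of a context, and the interaction and the P14 to P0 comparison on all 12, with edgeR 4.0.16 in R 4.3.3: filterByExpr, TMM, estimateDisp, glmQLFit with robust = TRUE and glmQLFTest. P-values were adjusted by Benjamini-Hochberg over all genes tested with a threshold of 0.05. The SE was derived from the fold change and its F statistic. CPM used TMM over 12 libraries, log2 CPM a prior count of 2. Levels relative to other endothelial genes were tested with exact two-sided permutation, adjusted over 20 tests. The code was tested on simulated data. The SE holds both animal-to-animal spread and counting error, and reads without molecular identifiers are not independent molecules.

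The members and all gene lists were chosen with earlier results of these data known. Named genes are the members, Auts2, called genes of each list (up to 5 by adjusted p), close copies, overlapping genes, the 3 nearest profiles of each member set and the largest rise and fall of each vascular list between P14 and P0. The largest fall of the barrier list is not reported here. Prox1 and genes given only as examples of a list were named outside this rule, after their values were seen. Alternatives were 1 strand column, RLE and upper-quartile scaling, DESeq2 1.42.0, other filters, non-robust fitting, 1 fit on 12 libraries, the library number series, another reference for relative levels, and leaving out each library. Leaving out Slco1a4 from the barrier mean was added after the data were seen. Isoforms and exon 7 were not analysed here.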

Additional observations from a re-analysis of the deposited data

Results flagged for a closer look

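The genotype difference was compared between the 2 contexts for the 10 members, Auts2 and the called genes of the lists. It differed by edgeR's interaction test for 2 of these genes, neither a member, while 326 of 18189 genes passed over the whole table (1.79%). The list genes had been picked because they were called at P0 or P14 in these same libraries. That choice favoured a difference between contexts in advance, so their share cannot be set against the 1.79%. Wild-type mice were the controls at P0 and flox-het mice at P14, and the tissue and the Cre driver were not the same either. What part these had in a difference was not tested. P2ry12, a microglial purine receptor, differed by 0.90 on the log2 scale (P14 minus P0, adjusted p = 0.00654): it was lower in the P0 knockouts (4.09 ± 0.47 CPM against 7.76 ± 0.78 in wild type, SD, n = 3) and stood at 69.9 ± 5.1 against 71.2 ± 4.6 CPM at P14. Gap43, a growth cone protein of neurons, differed by 0.60 (adjusted p = 0.0113): it was higher in the P14 knockouts (417 ± 45 CPM against 299 ± 4.6) and stood at 984 ± 64 against 1071 ± 90 CPM at P0. Both passed in all 19 other settings run. DESeq2 called the interaction for 531 genes over the whole table. Of the genes compared it called 2 more, Auts2 (-0.47, adjusted p = 0.0284) and Lef1 (-1.03, adjusted p = 0.0332). Each of these passed in 4 of 19 settings.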

How the results depend on the processing

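No paired analysis was possible because the labels carry no replicate numbers that groups share. The count of all genes called, 147 at P0, 342 at P14 and 326 for the interaction, moved with the method. At P0 DESeq2 gave 374 calls, dropping the low-count filter 625, a non-robust fit 50, 1 fit on 12 libraries 284, a term for the library series 465 and 2107 were called in the 4 libraries of the first series. At P14 it was 534 with DESeq2 and 814 without the filter. For the interaction it was 205 with 1 strand column, 531 with DESeq2 and 646 without the filter. Leaving out a library gave 1 to 775 calls at P0, 104 to 1808 at P14 and 125 to 905 for the interaction; the P0 count was 1, 2 and 1 without knockout 1, wild type 1 or wild type 2 and 15 without knockout 2, and the P14 count was 1808 without control 3. The causes were not tested. The share of P0 calls that were higher, 21.1%, was 34.2% without the filter, 31.8% with the series term and 44.9% in the first series.

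Of the members, 1 was called at P0, 2 in the first series and 0 to 1 on leaving out a library. At P14 0 were called in the edgeR fit reported, 1 with DESeq2, 2 without the filter, 1 in 1 fit on 12 libraries and 0 to 1 on leaving out a library. No member was called in the interaction under any of 19 alternatives. Slc2a1 at P0 stayed between 0.51 and 0.69 and passed in 13 of 16 alternatives, and Kdr stayed below 0 at both ages in all alternatives run (16 at P0, where it never passed, and 14 at P14). None of the log2 differences that changed sign was past the threshold. In the first series Tek, Tie1 and Pecam1 stood at 0.15, 0.069 and 0.090 at P0. With 1 strand column Slco1a4 stood at 0.050 at P14, and the interaction was 0.028 for Kdr and -0.29 for Car4. On leaving out a library at P0, Flt1 ranged from -0.023 to 0.21, Tie1 from -0.29 to 0.026, Pecam1 from -0.22 to 0.0099 and Cldn5 from -0.029 to 0.084. At P14 Flt1 ranged from -0.28 to 0.042, Slco1a4 from -0.23 to 0.029 and Mfsd2a from -0.0020 to 0.16. The interaction ranged from -0.21 to 0.090 for Tek and from -0.25 to 0.38 for Car4. Relative to other endothelial genes, P0 differences ranged from -0.25 to 0.042 (Tek), -0.23 to 0.11 (Tie1), -0.12 to 0.041 (Pecam1), -0.0085 to 0.16 (Cldn5) and -0.17 to 0.023 (Mfsd2a). P14 ones ranged from -0.11 to 0.22 (Flt1), -0.14 to 0.0074 (Tek), -0.068 to 0.23 (Slco1a4) and -0.13 to 0.073 (Abcb1a). Depth limits Slco1a4 at P0, which rests on 36 to 89 counts per library.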
